A study of Sus scrofa with 16 samples.

Results

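The contractile machinery of smooth muscle was followed through 10 genes, ACTA2, TPM2, TPM1, MYH11, MYL9, TAGLN, CNN1, DES, FHL1 and PLS3, in the colonic mucosa and liver of pigs fed corn starch (CS) or raw potato starch (RPS). Of the 10 genes, 8 had at least 1 probe under their own name, out of 6825 genes named on the array, and they were measured by 58 of its 43603 probes. MYH11, the smooth muscle myosin heavy chain, and TAGLN, transgelin, had no probe under these names and are not described further. FHL1 is written FHL1C in the array's gene column and was recognised by its older name and transcript record, which added 16 probes to the 42 whose own gene name or description matched. The genes were chosen with the colonic difference between the diets known, so their colonic diet differences are given as a description, without a test. Their values in the liver, and their levels in colon against liver averaged over the diets, were not used for that choice and were tested.

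Smooth muscle cells shorten when myosin filaments, switched on by phosphorylation of a regulatory light chain, pull on actin filaments. ACTA2 is the smooth muscle actin, TPM1 and TPM2 are tropomyosins wound along the actin filament, CNN1 (calponin) binds actin and restrains the myosin motor, and MYL9 is a regulatory light chain. DES (desmin) forms the intermediate filaments that hold the contractile units in place, FHL1 is a LIM-domain protein of muscle, and PLS3 (plastin 3) bundles actin in many cell types. In the colon such cells form the outer muscle coat, the thin muscle layer under the mucosa, and the walls of vessels, whereas in the liver they lie mostly in vessels, with stellate cells as another source of these proteins.

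All pigs were Duroc × Landrace × Large White barrows that began the diets at 70 days of age and were killed 100 days later, at 170 days. The CS diet held purified corn starch, 230 g/kg while growing and 280 g/kg while finishing, and in the RPS diet the same amounts were purified raw potato starch. Feed was withheld before slaughter in both groups, and the proximal colon was scraped with a glass slide for its mucosa. A scraping can carry more or less of the tissue under the epithelium, so in these samples fewer cells of a type and less RNA per cell cannot be told apart. Each diet and tissue was represented by 4 arrays, each from 1 pig of a different pen, giving 16 arrays. The paper describes fewer slaughtered pigs per diet than there are arrays. If the livers came from that slaughter, some pigs must have given both colon and liver. Which arrays share a pig is not stated, and the comparison of colon with liver treated the arrays as independent.

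The median signal of a colonic array was 56.3 to 70.8 with CS and 34.2 to 42.5 with RPS before normalization, and 64.9% to 72.2% of spots on colonic arrays and 61.0% to 65.9% on liver arrays were well above background. Each slide held 1 group only, so slide and group cannot be told apart. All 16 epithelial markers on the array passed background on each of the 8 colonic arrays, 14 of them were called higher in colon than in liver, and the 10 hepatocyte markers were all called lower there. CS replicate 3 and RPS replicate 2 stood apart from the other colonic arrays. Their mean correlation with the other arrays of their group was 0.947 and 0.950, against 0.968 to 0.976 for the other 6 arrays. In these 2 arrays, 8 genes of B cells and lymphoid follicles, listed after the data had been seen, lay 2.65 and 2.45 log2 units above the mean of the 8 colonic arrays, while the epithelial markers lay 1.56 and 0.88 units below it. Colonic differences of the members, and medians of single lists, are therefore also given without both arrays.

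Shown here are the sequences of nearby probes of the TPM1 transcript record, starting at its bases 798 and 829, because the comparison of colon with liver changed between them. They share the 26 bases in capitals and differ in what follows or precedes that run. By their starts the probes also overlap just after the run, where their bases differ, so both cannot match the record there.

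TPM1 A_72_P721398: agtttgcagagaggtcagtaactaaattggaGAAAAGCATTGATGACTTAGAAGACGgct
TPM1 A_72_P726528: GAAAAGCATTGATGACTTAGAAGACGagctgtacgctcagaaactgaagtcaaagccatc

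In the colon, 43 of the 58 probes were lower with RPS and 15 were higher, with a median difference of -0.50 on the log2 scale, against 0.01 over all probes. Signals passed background on every colonic array at 51 of the 58 probes, and the other 7 belong to TPM1 (4), DES, FHL1 and PLS3. The study's methods call a probe when its p, without adjustment, is below 0.05 and its fold exceeds 1.5. By that rule 9 of the 58 were called, all lower with RPS, beside 2.94% of all probes, 1.32% called lower and 1.62% called higher. No probe on the array had an adjusted p below 0.05 in the colon, with limma or with the methods' t-test, while 2362 had an unadjusted limma p below 0.05. The count of 9 became 21 without CS replicate 3 (3.29% of all probes called), 14 without RPS replicate 2 (6.04%) and 20 without both (5.47%). The diets did not overlap at 6 of the 58 probes, beside 6.52% of all probes. As the members were chosen on this contrast, nothing is read from these counts. Each gene is given at its brightest colonic probe, with log2 signals normalized over the 8 colonic arrays, and differences are RPS minus CS ± SE.

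**Figure D1:**
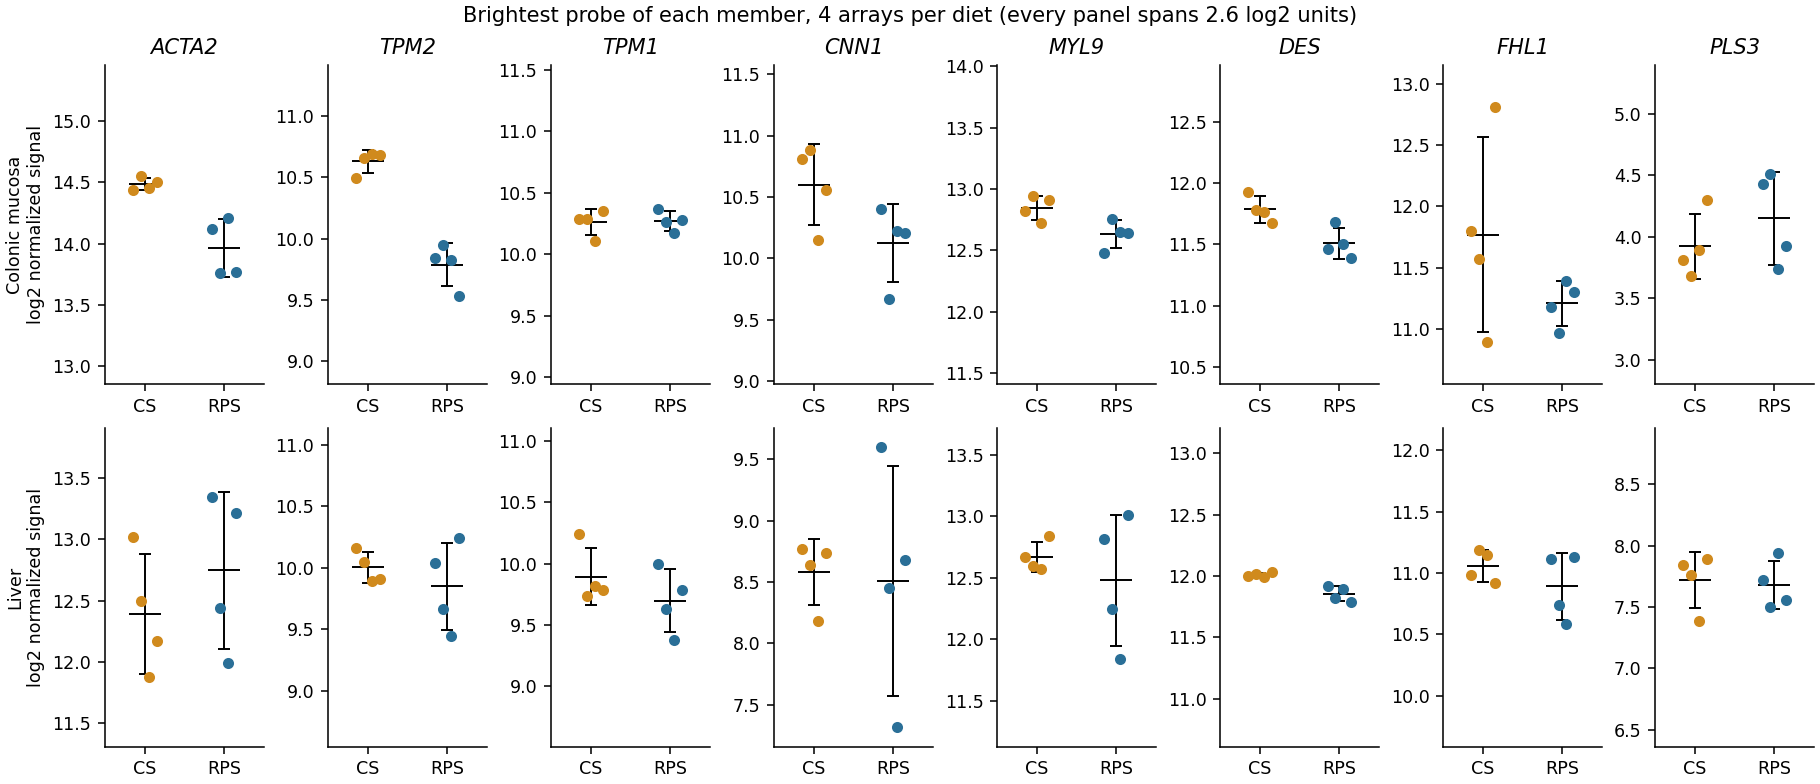
Log2 normalized signal at the brightest probe of 8 genes (vertical axes, each 2.6 units high) by diet in colonic mucosa (upper row) and liver (lower row), with 1 point per array and bars for mean ± SD of 4 arrays. In the colon, ACTA2 and TPM2 lay lower on every RPS array than on any CS array, and TPM1 had means of 10.26 with CS and 10.27 with RPS. In the liver, DES showed no overlap, at 11.99 to 12.03 with CS and 11.79 to 11.92 with RPS.

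Among the genes of the thin filament, TPM2 had the largest colonic difference. Its brightest probe read 10.49, 10.66, 10.69 and 10.68 on the CS arrays and 9.84, 9.95, 9.82 and 9.54 on the RPS arrays. No RPS array reached the lowest CS array, and the means were 10.63 ± 0.09 and 9.79 ± 0.18 (SD, n = 4), a difference of -0.84 ± 0.12 or 1.79-fold (-0.88 without both arrays). The other 4 probes of TPM2 differed by -0.70 to -0.55, and 4 of its 5 probes were called. These 4 start between bases 732 and 748 of 1 transcript record and overlap, so they are not independent measurements. The probe at base 195 was not called. The diets did not overlap at 2 of the 5. At the others RPS replicate 2, which stood apart, lay within the range of the CS arrays.

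ACTA2 was lower with RPS at all 7 of its probes, by -0.70 to -0.42. At the brightest, the CS arrays read 14.44, 14.55, 14.45 and 14.50 and the RPS arrays 14.12, 13.76, 14.21 and 13.77. The diets did not overlap there, with a difference of -0.52 ± 0.13 (1.44-fold), and they did not overlap at 1 further probe, but only 1 of the 7 probes was called, since most changes were below 1.5-fold. The spread between RPS arrays (SD 0.23) was wider than between CS arrays (SD 0.05). Without both arrays that stood apart, the 7 differences were -0.61 to -0.38.

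CNN1 read 10.81, 10.88, 10.15 and 10.56 with CS and 10.40, 9.67, 10.22 and 10.21 with RPS. The lowest array of each diet was the one that stood apart, and the diets overlapped (-0.48 ± 0.22). The difference was -0.48 without both arrays. Its other, dimmer probe differed by -0.78 and was called.

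TPM1 did not follow TPM2. Its brightest probe, at base 331, lay between 10.11 and 10.35 with CS and between 10.17 and 10.37 with RPS, and differed by 0.01 ± 0.10 (-0.04 without both arrays). Over its 21 probes the differences ran from -0.69 at base 218 to 0.93 at base 837, with 7 lower and 14 higher, and none was called. The 4 probes between bases 816 and 837 were well above background on 0 to 3 of the 8 colonic arrays, and the 4 between bases 1030 and 1067 were 0.37 to 0.52 higher with RPS, with SE of 0.22 to 0.26.

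Of the thick filament and its light chains only MYL9 was measured, by 1 probe. Its values were 12.72 to 12.94 with CS and 12.48 to 12.76 with RPS, which overlapped, and the difference was -0.22 ± 0.10 (1.16-fold), or -0.31 without both arrays.

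DES, the intermediate filament gene, read 11.93, 11.78, 11.76 and 11.67 with CS and 11.46, 11.68, 11.50 and 11.39 with RPS at its brightest probe. Only the highest RPS array reached the range of the CS arrays, and the difference was -0.28 ± 0.10 (1.21-fold), or -0.35 without both arrays. The other 3 probes were much dimmer, with CS means of 2.07 to 5.75 against 11.79 at the brightest. They differed by -0.54 to -0.42, with SE of 0.45 to 0.54, and the dimmest was well above background on 1 colonic array only.

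FHL1 was lower with RPS at all 16 of its probes, by -1.63 to -0.19, and 2 were called. Its brightest probe read 11.80, 11.57, 10.89 and 12.81 with CS and 11.18, 10.97, 11.39 and 11.30 with RPS. CS replicate 4 was the highest and CS replicate 3 the lowest of all 8 arrays, so the CS arrays enclosed the RPS arrays, and the difference of -0.56 ± 0.38 was -0.21 without CS replicate 4, -0.85 without CS replicate 3, and -0.78 without both arrays that stood apart. The 16 probes lie on 1 transcript record and are not independent measurements.

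The 2 probes of PLS3, at bases 543 and 1801 of its record, went opposite ways. The probe at base 1801, given in full after its values were seen, read 4.35, 4.13, 4.10 and 4.12 with CS and 2.80, 3.18, 3.23 and 2.90 with RPS. It was well above background on all 4 CS arrays and on none of the RPS arrays, so it was at least 1.81-fold lower with RPS, measured against the dimmest signal still well above background on each RPS array. The brighter probe at base 543 lay between 3.68 and 4.30 with CS and between 3.74 and 4.52 with RPS, a difference of 0.23 ± 0.22, or 0.10 without both arrays.

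**Figure D2:**
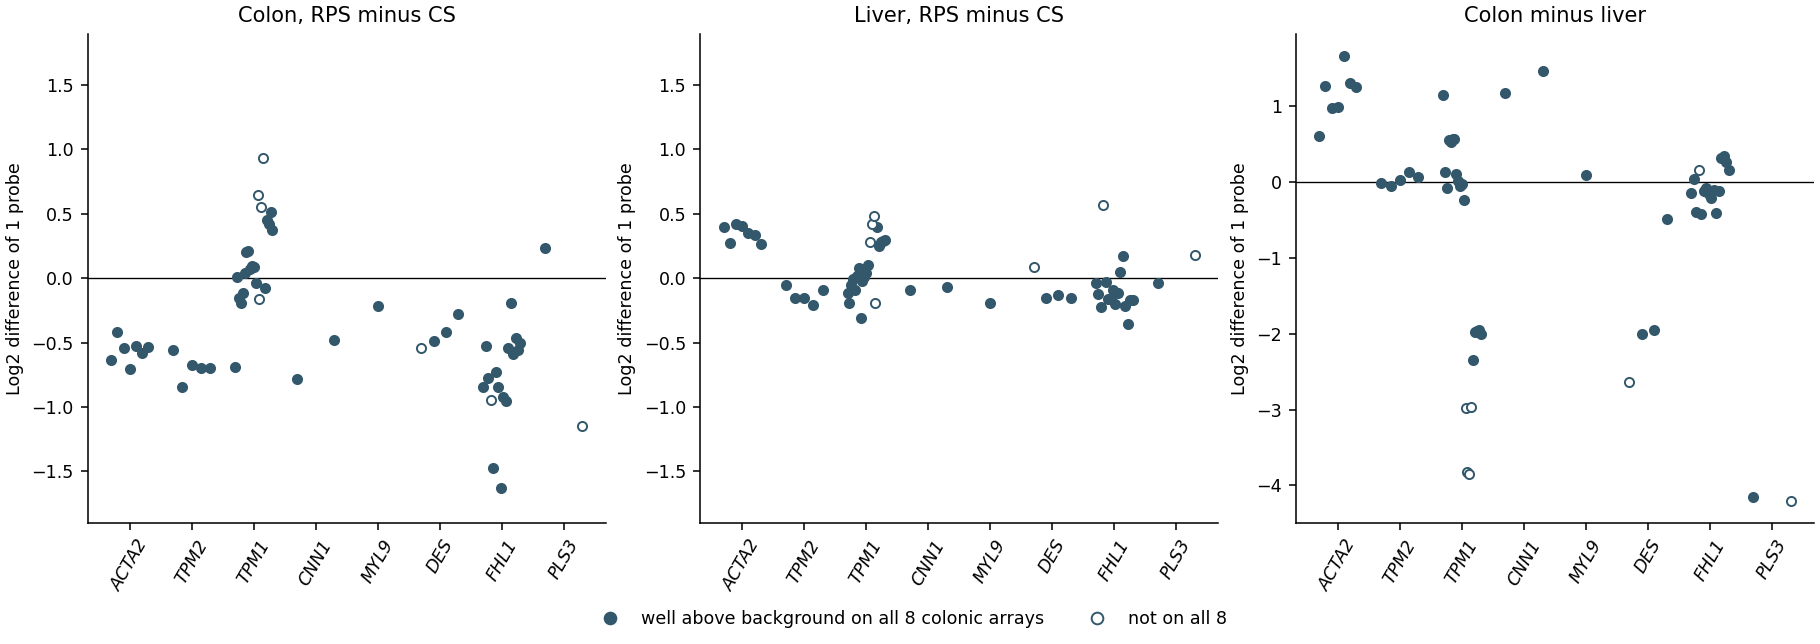
Log2 difference at each of the 58 probes (points), grouped by gene and ordered within a gene by position in the transcript, for RPS minus CS in the colon, RPS minus CS in the liver, and colon minus liver. Open points were not well above background on all 8 colonic arrays. ACTA2, TPM2, CNN1, DES and FHL1 lie below 0 at every probe in the colon, ACTA2 lies above 0 at every probe in the liver, and TPM1 and PLS3 hold the lowest values in colon minus liver.

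In the liver, none of the 58 probes was called between the diets by the same rule, beside 3.56% of all probes, 1.76% called lower and 1.8% called higher. Of the 58, 33 were lower and 25 higher with RPS, from -0.36 to 0.57, 1 had an unadjusted p under 0.05, and the lowest adjusted p was 0.658 (limma, Benjamini-Hochberg over all probes). That probe was the brightest of DES. It read 12.00, 12.02, 11.99 and 12.03 with CS and 11.92, 11.82, 11.89 and 11.79 with RPS. Every RPS array was lower than every CS array, by a difference of -0.16 ± 0.07 or 1.11-fold (exact two-sided permutation test, p = 0.0286, the smallest that 4 arrays against 4 allow), and its adjusted p was 0.658 with limma. The diets overlapped at the other 57 probes. As the DES probe was singled out by its low p, the permutation p is not a separate test.

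ACTA2 was higher with RPS at all 7 probes in the liver, by 0.27 to 0.42, in the direction opposite to the colon. At the brightest probe the CS arrays read 13.02, 12.50, 11.88 and 12.17 and the RPS arrays 13.34, 12.44, 11.99 and 13.21. The diets overlapped over most of their range, and the difference of 0.35 ± 0.37 did not hold up against the spread (exact permutation p = 0.371). The 7 probes share their gene and their 8 arrays, so their common sign is not 7 separate measurements. CNN1 ranged from 7.32 to 9.60 among the RPS livers and from 8.18 to 8.77 among the CS livers, and TPM2, MYL9, FHL1 and PLS3 differed by -0.04 to -0.19 at their brightest probes.

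Between the tissues a probe was called when its adjusted p was below 0.05 and its fold exceeded 1.5. Of the 58 probes 23 were called, 9 higher and 14 lower in the colon, beside 42.2% of all probes, 23.4% higher and 18.7% lower. The share of the members, 39.7%, was near that background. The values that follow are differences in log2 signal, colon minus liver, after normalization of the 16 arrays together and averaged over both diets.

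ACTA2 and CNN1 were higher in the colon. At its brightest probe ACTA2 was 14.28 ± 0.34 in the colon and 12.61 ± 0.53 in the liver (SD, n = 8), a difference of 1.66 ± 0.19 or 3.17-fold (limma adjusted p = 5.0e-06), and no liver array reached a colonic one, as at 26.8% of all probes. Of its 7 probes, 6 were called, with differences of 0.98 to 1.66. Within the CS diet alone the 7 differences were 1.13 to 2.11, and within RPS 0.09 to 1.22. Values within a diet carry the colonic difference on which the members were chosen and are a description. Both probes of CNN1 were called, at 1.18 and 1.46.

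DES and PLS3 were lower in the colon. The 3 dimmer probes of DES were called, at -2.01 and -1.96 for the pair well above background on all 16 arrays, and at -2.63 for a probe that was so on 1 of the 8 colonic arrays. Its brightest probe differed by -0.48 ± 0.07, which passed the adjusted p (2.2e-05 with limma) but was 1.40-fold, under the fold threshold. PLS3 read 3.75 ± 0.33 in the colon and 7.91 ± 0.20 in the liver (SD, n = 8) at its brighter probe, a 17.9-fold difference (limma adjusted p = 6.4e-12), and its other probe, well above background on 4 of the 8 colonic arrays, differed by -4.20.

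TPM2, MYL9 and FHL1 did not pass both thresholds at any probe. TPM2 differed by -0.05 to 0.13 when the diets were averaged, since its 5 probes were 0.25 to 0.38 higher in the colon than in the liver of CS pigs and differed by -0.40 to -0.13 in RPS pigs. That split by diet restates the colonic difference on which the members were chosen. FHL1 ranged from -0.42 to 0.34, and MYL9 differed by 0.09 ± 0.14.

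The TPM1 differences changed along the transcript, and the stretches given here were marked off after the values were seen. The probe at base 218 was 1.14 higher in the colon (called), the pair at bases 331 and 490 differed by -0.08 and 0.14, and the 4 at bases 627 to 682 were 0.52 to 0.57 higher with adjusted p between 7.0e-04 and 0.012 (limma) but under 1.5-fold. The 5 probes at bases 709 to 798 differed by -0.24 to 0.11, with adjusted p of at least 0.111. From base 816 the direction turned. The probes at bases 816 and 837, well above background on 2 and 3 of the 8 colonic arrays, differed by -2.98 and -2.97, the probe at base 894 by -2.35 and the 4 at bases 1030 to 1067 by -2.01 to -1.95. With the 2 probes between bases 816 and 837, on no colonic array well above background, all 9 were called.

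The sequences printed above lie on either side of that turn. The probe at base 798 differed by -0.24 (limma adjusted p = 0.11), and the probe at base 829, whose first 26 bases it shares, was well above background on all 8 liver arrays and on none of the colonic arrays. The latter was at least 9.24-fold higher in the liver, and its neighbour at base 832 at least 10.03-fold. TPM1 is known to be spliced into transcripts with different ends in different muscles and in non-muscle cells. Which of them the record carries was not tested.

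Within a diet, the members differed in how far the colonic arrays spread. The pooled SD of the brightest probe within diets was smallest for TPM1, at 0.09, and largest for FHL1, at 0.58, with CNN1 at 0.32 and PLS3 at 0.33. Over the members the median was 0.16, against 0.36 over the 26513 probes well above background on all 8 colonic arrays, given as a description. At these brightest probes the members did not rise and fall together. Another choice of probe can change this, since on RPS replicate 2 the 7 probes of ACTA2 deviated by -0.79 to 0.25. Over the 8 arrays, deviations from the diet mean gave r between -0.46 (TPM2 and CNN1) and 0.61 (TPM1 and FHL1) for the 28 pairs of genes, with a median of 0.11. This is a description of 8 arrays, and the arrays that stood apart enter every pair.

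The gene probes most like the mean deviation of the members were those of CCDC80, DHRS7, ITM2B, SLC39A8, FERMT2, LGI1, SLC2A4, IGFBP3, DCN and CKM, with r of 0.93 to 0.97 over the 8 arrays. FHL1 had the largest deviations and so weighed most in that mean. The profile was lowest in CS replicate 3 (-0.20) and highest in CS replicate 4 (0.19).

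Other genes of contraction were taken from 4 lists written for this comparison. Of their 71 genes, 39 were on the array, and in the colon 23 were lower and 16 higher with RPS. The median was -0.05 (0.04 after scaling to the 75th percentile). By the same rule 1 of the 39 was called, beside 2.94% of all probes. That gene was FLNA, filamin A, which links actin to the membrane (-0.88 ± 0.26). Among the thin filament genes, 5 of 12 were measured and none was called, with ACTB at -0.03, TPM3 at 0.14, TPM4 at -0.01, CNN3 at 0.21 and SMTN at 0.01. Of the thick filament list, 6 of 13 were measured and none was called, with MYLK, the kinase that phosphorylates the light chain, at -0.34 ± 0.17 and PPP1R14A, an inhibitor of its phosphatase, at -0.28 ± 0.59.

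In the anchoring list, 9 of 13 measured genes were lower with RPS, with a median of -0.20 (-0.31 without both arrays that stood apart). VIM was at -0.38, ZYX at -0.53 and CAV1 at -0.37. LCP1, the plastin of white blood cells, differed by -0.81 ± 0.88 and was highest on CS replicate 3 (15.94) and RPS replicate 2 (15.55), against 12.21 to 13.93 on the others. In the list of transcription and excitation, 7 of 15 were lower and none was called, with MYOCD, the coactivator that drives smooth muscle genes, at -0.52 ± 0.38, KCNMB1, a potassium channel subunit of smooth muscle, at -0.44 ± 0.22, EDNRB at -0.44 and ITPR1 at -0.41. GATA6, a transcription factor, was at 0.58 ± 0.49 and PLN, which restrains the calcium pump, at 0.38 ± 0.80. In the liver, 2 of the 39 were called, both lower, beside 1.76% of all probes called lower. CAV1 was called at -0.74 ± 0.10, with an adjusted p of 0.245 (limma). KCNMA1 was called lower with RPS too, but was well above background on 1 of the 8 liver arrays, so no fold is given. Between the tissues, 19 of the 39 genes were called higher and 9 lower in the colon, beside 23.4% and 18.7% of all probes, with a median of 0.64.

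Markers of the other layers and cells that a scraping can hold were read on the same arrays. For the deeper wall, 8 of 21 genes of enteric neurons and glia were measured, 5 lower and 3 higher with RPS, with a median of -0.15 and none called, and the median was 0.04 without both arrays that stood apart. The largest differences were GAP43 at -1.18, with an SE larger than the difference and a signal well above background on 5 of the 8 arrays, and RET at -0.53 ± 0.42. The log2 of their summed signal was 9.20 to 10.99 with CS and 8.38 to 11.30 with RPS. The brightest gene in that sum, STMN2 (-0.52 ± 0.90), read 10.77 on CS replicate 3 and 11.08 on RPS replicate 2. On the other arrays STMN2 read 7.32 to 8.92. GFAP, the glial filament gene, was not well above background on any colonic array. KIT, the receptor that marks interstitial cells of Cajal and mast cells, differed by -0.05 ± 0.33 and was the only one of 4 genes of those interstitial cells on the array.

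Some connective tissue and vessel wall genes were called lower with RPS, beside 1.32% of all probes, none with an adjusted p below 0.05 (limma). Of 14 measured genes of fibroblasts and matrix, 13 were lower, with a median of -0.44 (-0.61 without both arrays), and POSTN was at 0.37. COL1A2, COL6A2 and FBN1 were called, at -0.72, -0.62 and -0.79. BGN was called too, and as it was well above background on the 4 CS arrays only, it was at least 1.04-fold lower with RPS. Their summed signal was 14.91 to 15.68 with CS and 14.61 to 15.23 with RPS on the same scale. Of 8 pericyte and vascular wall genes, 7 were lower, with a median of -0.36 (-0.43 without both arrays), and PDGFRB was called at -0.66. Their summed signal of 10.11 to 10.54 with CS and 9.61 to 10.15 with RPS overlapped at its edge. Of 7 endothelial genes, 4 were lower and 3 higher, and none was called.

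Of 6 macrophage genes, 5 were lower, with a median of -0.65 (-0.85 without both arrays). The complement genes C1QA, C1QB and C1QC were called at -0.88, -1.27 and -1.30, beside 1.32% of all probes called lower. Their adjusted p was 0.59 to 0.82 (limma). CD163 (-0.30), AIF1 (-0.42) and CD14 (0.00) were not called, and the diets overlapped at each. The summed signal of that list, which includes the called genes, was 15.44 to 15.61 with CS and 13.92 to 15.07 with RPS, without overlap. Of 16 epithelial genes, 14 were higher with RPS, with a median of 0.19 and none called, and the median was 0.02 without both arrays and 0.36 after scaling to the 75th percentile. Their summed signal overlapped at 18.01 to 19.90 and 18.62 to 19.99. The B cell and follicle genes were lower in all 8 cases, with a median of -0.86 (-1.05 without both arrays) and none called. Their summed signals were 11.85 to 16.44 and 12.26 to 16.56. Of 13 striated muscle genes measured, none was called, and the median was 0.11 (0.21 without both arrays). On all 8 colonic arrays 8 of the 13 were well above background, while MYH1, MYH2 and MYL1 were so on none. Between the tissues, 5 of the 13 were called higher and 1 lower in the colon, beside 23.4% and 18.7% of all probes. In the liver, SOX10 (0.90) and TNNC2 (0.93) were called higher and CDH1 (-0.80) lower with RPS, beside 3.56% of all probes called. Their adjusted p was 0.44 to 0.60 (limma), and SOX10 was well above background on 2 of the 4 CS livers. MYH2 was called while well above background on no liver array. The part of any of these cells, and of muscle carried over in the scrapings, in the differences of the members was not tested.

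**Figure D3:**
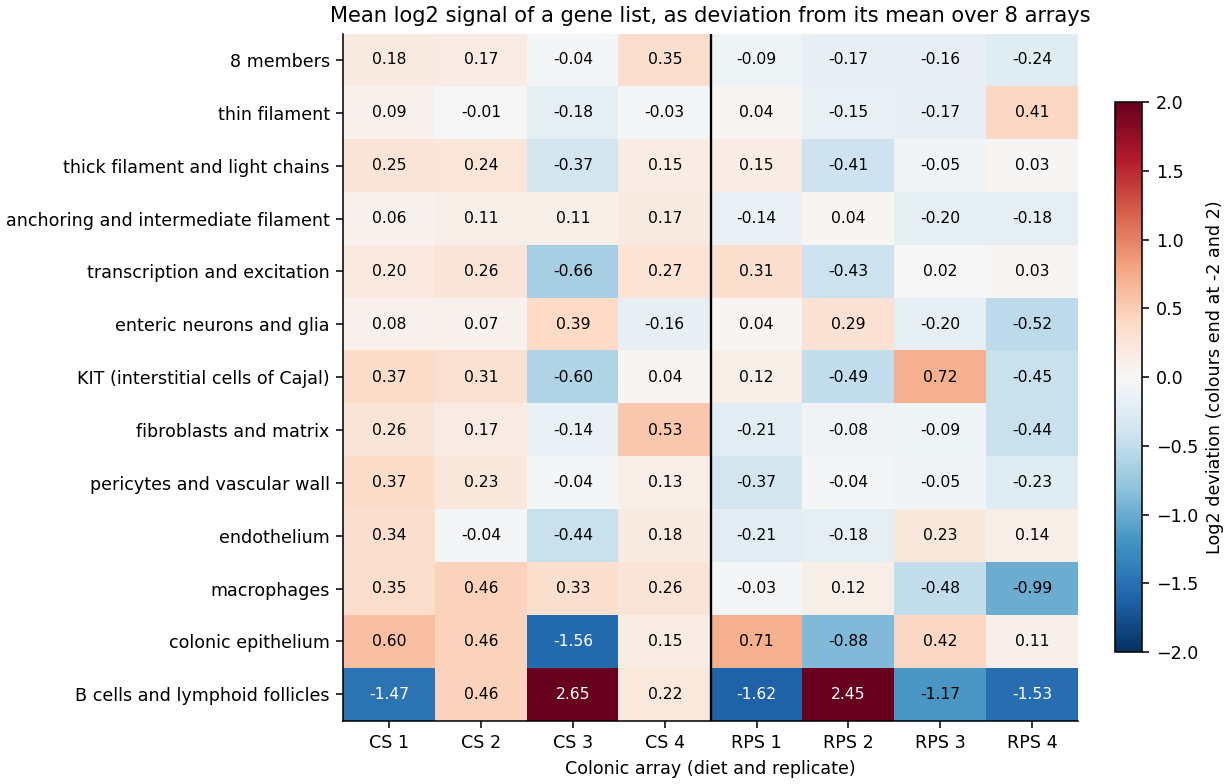
Mean log2 signal of the measured genes of each list (rows) on the 8 colonic arrays (columns, CS left and RPS right of the line), as deviation from the mean of the list over the arrays. Colours end at -2 and 2. The 8 members range from -0.24 to 0.35, with CS replicate 3 at -0.04 the lowest of the CS arrays, and the strongest contrast is between the epithelial and the B cell lists on CS replicate 3 and RPS replicate 2.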

How the data were processed

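Each of the 16 one-colour porcine arrays was scanned by the authors with Agilent Feature Extraction 10.7, and the deposited files hold the intensity of each spot with background subtracted and without normalization between arrays. A deposited table of the authors' log2 values served as an alternative. Spots for controls were dropped and outliers treated as missing. Signals on the log2 scale were then brought to common quantiles, across 8 arrays for a diet contrast and 16 for colon against liver, and averaged per probe. Differences were fitted with limma 3.58.1 in R 4.3.3 on all 43603 probes, with Benjamini-Hochberg adjustment. The fit was tested on simulated data. No spot was saturated, and the number of arrays limits the precision. Members, lists and tests were chosen with earlier results of these data known. By rule, all members were named, those with the 5 largest colonic differences with every array, and up to 6 genes per list with the largest colonic difference among those well above background, plus any called in the liver. Probes were named from the files and the RefSeq table of Sscrofa11.1. Figures were drawn with matplotlib 3.10.9. Alternatives were scaling to the 75th percentile, normexp (offset 50), the authors' log2 values, outlier spots kept, a filter on dim probes, the methods' t-test, a variance trend, a replicate block, and each array left out. Leaving out both arrays that stood apart, the replicate block within CS, and the B cell list, were chosen after seeing the data. A further comparison of probe sequences is not reported here.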

Additional observations from a re-analysis of the deposited data

Results flagged for a closer look

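In 36 groups of 4 arrays, formed by the brightest probe of each member and the second PLS3 probe, 3 arrays lay farther from their group than Dixon's critical value allows, and chance flags about 1 in 20 such groups. CS replicate 1 in the colon read a log2 signal of 10.49 for TPM2, below the other CS arrays at 10.66 to 10.69 and above every RPS array. CS replicate 1 in the liver read 10.24 for TPM1 at its brightest probe, above the others at 9.74 to 9.82. CS replicate 1 in the colon read 4.35 at the PLS3 probe at base 1801, above the others at 4.10 to 4.13.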

How the results depend on the processing

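The median colonic difference over the 8 members was -0.38 and was negative under every alternative run. It was -0.31 after scaling to the 75th percentile, -0.51 when all probes of a gene were averaged, and -0.41 to -0.26 when 1 array was left out. The count of 9 colonic probes called ranged from 6 to 21 when 1 array was left out (21 without CS replicate 3, 14 without RPS replicate 2) and was 20 without both of these arrays. ACTA2, TPM2, CNN1, MYL9, DES and FHL1 kept their colonic direction under all 19 alternatives, TPM1, at 0.01, kept it under 16 of them, and PLS3 turned to -0.46 when its 2 probes were averaged. Over all probes, the colonic calls numbered 1283 (708 higher, 575 lower), 1968 after scaling to the 75th percentile (1358 higher, 610 lower), 180 with normexp and 779 on probes well above background only. With normexp the liver calls fell from 1554 to 221 and the tissue calls from 18379 to 10897, and on probes well above background 965 were called in the liver. No member was called in the liver under any alternative. The tissue count of 23 was 20 to 27, and DES at its brightest probe became -0.68 and was called after 75th percentile scaling. With a replicate block, 8 colonic, 0 liver and 23 tissue probes of the members were called, beside 1267, 1522 and 18366 of all 43603 probes. Same-numbered arrays of colon and liver correlated at 0.16 to 0.33 in CS and at -0.08 to 0.07 in RPS, and each CS colon array correlated best with the liver array of its own number, a hint from the data that held in no RPS array, so the numbers were not taken as pairs. Within CS alone, 24 member probes were called with the replicate block and 24 without it, beside 16062 and 16231 of all 43603 probes. The block within CS was an alternative chosen after seeing the data, and colonic CS values entered the choice of the members. The median pooled SD within diets was 0.136 to 0.169 with 1 array left out. In the colon, PLS3, BGN, 1 probe of DES and the TPM1 probes near the turn were limited by signals near background, as was KCNMA1 in the liver.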
